A study of Mus musculus with 12 samples.

Results

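The mesenchymal stem cell surface markers examined here are 10 genes, chosen by their Ensembl gene ID from 56748 gene IDs in the deposited tables. They are Cd44 (ENSMUSG00000005087), Thy1 (ENSMUSG00000032011), Eng (ENSMUSG00000026814), Nt5e (ENSMUSG00000032420), Ly6a (ENSMUSG00000075602), Cd34 (ENSMUSG00000016494), Ptprc (ENSMUSG00000026395), Pdgfra (ENSMUSG00000029231), Pdgfrb (ENSMUSG00000024620) and Vcam1 (ENSMUSG00000027962). RNA was sequenced from mouse adipose-tissue-derived mesenchymal stem cells, stromal cells isolated from fat, which were grown as 3D spheroids or as 2D single cells. The groups were 3D spheroids at 24 h, 2D cells at 24 h, 3D spheroids at 0 h and 2D cells at 0 h, with 3 libraries each and 12 in all. Every group was kept in DMEM with serum and antibiotics, and the labels name no further treatment and no genetic change. The labels give no mouse strain, sex, age or passage, do not say how long spheroids had been forming at 0 h, and leave unsaid if the replicates are different cultures. The p-values therefore refer to library-to-library spread that may be technical. Library totals lay between 10182590 and 17109609 expected counts.

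Mesenchymal stem cells have no marker of their own and are defined by a panel of surface proteins together with the absence of blood cell proteins. In human cells the panel includes CD73 (Nt5e), CD90 (Thy1) and CD105 (Eng), with CD45 (Ptprc) absent, and in mouse it usually adds Sca-1 (Ly6a) and CD44. Stromal cells of fat also carry receptors for platelet-derived growth factors. In human adipose stromal cells CD34 is present in the tissue and is known to be lost during attached culture. The values below are RNA levels of the bulk culture and do not measure protein at the surface. In such samples, fewer cells of a type cannot be told apart from less RNA per cell.

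The promoters of Cd34, Pdgfra and Cd44 are shown because these genes had the largest fold changes between the cultures, described below. They come from RefSeq (build GRCm38.p6, which is not the build of the deposited tables), where 6 of the 10 genes had an entry. Each window covers 250 bases before to 50 bases after the annotated start, written 5′ to 3′ on the strand of the gene. Capitals mark a match on either strand to TATAAA (the core promoter box bound by TBP), CCAAT (bound by NF-Y), GGGCGG (the GC box), ACGTG (the core of the hypoxia response element) or TGACTCA (bound by AP-1).
Cd34, chr1:194938571-194938870, plus strand: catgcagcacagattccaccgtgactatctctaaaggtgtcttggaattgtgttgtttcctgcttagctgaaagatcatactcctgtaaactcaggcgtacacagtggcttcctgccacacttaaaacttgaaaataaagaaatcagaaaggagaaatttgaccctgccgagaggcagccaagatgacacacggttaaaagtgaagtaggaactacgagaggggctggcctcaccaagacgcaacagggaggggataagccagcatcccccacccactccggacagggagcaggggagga
Pdgfra, chr5:75152001-75152300, plus strand: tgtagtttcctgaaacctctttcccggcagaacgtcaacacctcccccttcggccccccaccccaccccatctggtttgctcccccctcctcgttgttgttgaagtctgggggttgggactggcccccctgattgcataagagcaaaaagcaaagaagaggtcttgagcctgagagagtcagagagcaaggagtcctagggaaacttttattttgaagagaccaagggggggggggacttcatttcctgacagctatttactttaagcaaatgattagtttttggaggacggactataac
Cd44, chr2:102901616-102901915, minus strand: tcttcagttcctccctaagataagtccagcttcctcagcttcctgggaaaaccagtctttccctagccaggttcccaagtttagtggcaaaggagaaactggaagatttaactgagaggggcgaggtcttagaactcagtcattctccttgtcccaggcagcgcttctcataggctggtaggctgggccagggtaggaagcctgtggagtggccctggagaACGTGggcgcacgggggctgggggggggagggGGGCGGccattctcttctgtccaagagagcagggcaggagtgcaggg
No match to these 5 motifs lay in the windows of Cd34 and Pdgfra. The Cd44 window held 1 match to ACGTG and 1 to GGGCGG, which do not overlap each other. Among 32851 promoters of the same length, 19.6% held ACGTG, 35.7% held GGGCGG, 13.6% held TATAAA, 37.4% held CCAAT and 5.20% held TGACTCA. The matches describe letters in these windows and were not set against any binding data.

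Of the 10 genes, 7 were at 27.1 TPM or more in every library, with Ly6a far above the others. TPM values are transcript abundances corrected for gene length and scaled to the same sum in each library. Group means of Ly6a lay between 1174 and 1848 TPM, which ranked it between 59 and 107 among the genes listed above 0. Thy1, Pdgfrb, Cd44, Vcam1, Pdgfra and Eng had group means between 33.3 and 248 TPM. Cd34 reached at most 10.4 TPM, Nt5e stayed at or below 0.490 TPM, and Ptprc had no counts. In spheroids, Cd34 was higher at both times, Pdgfra was higher by its widest margin at 0 h, and Cd44 was lower at both times.

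**Figure D1:**
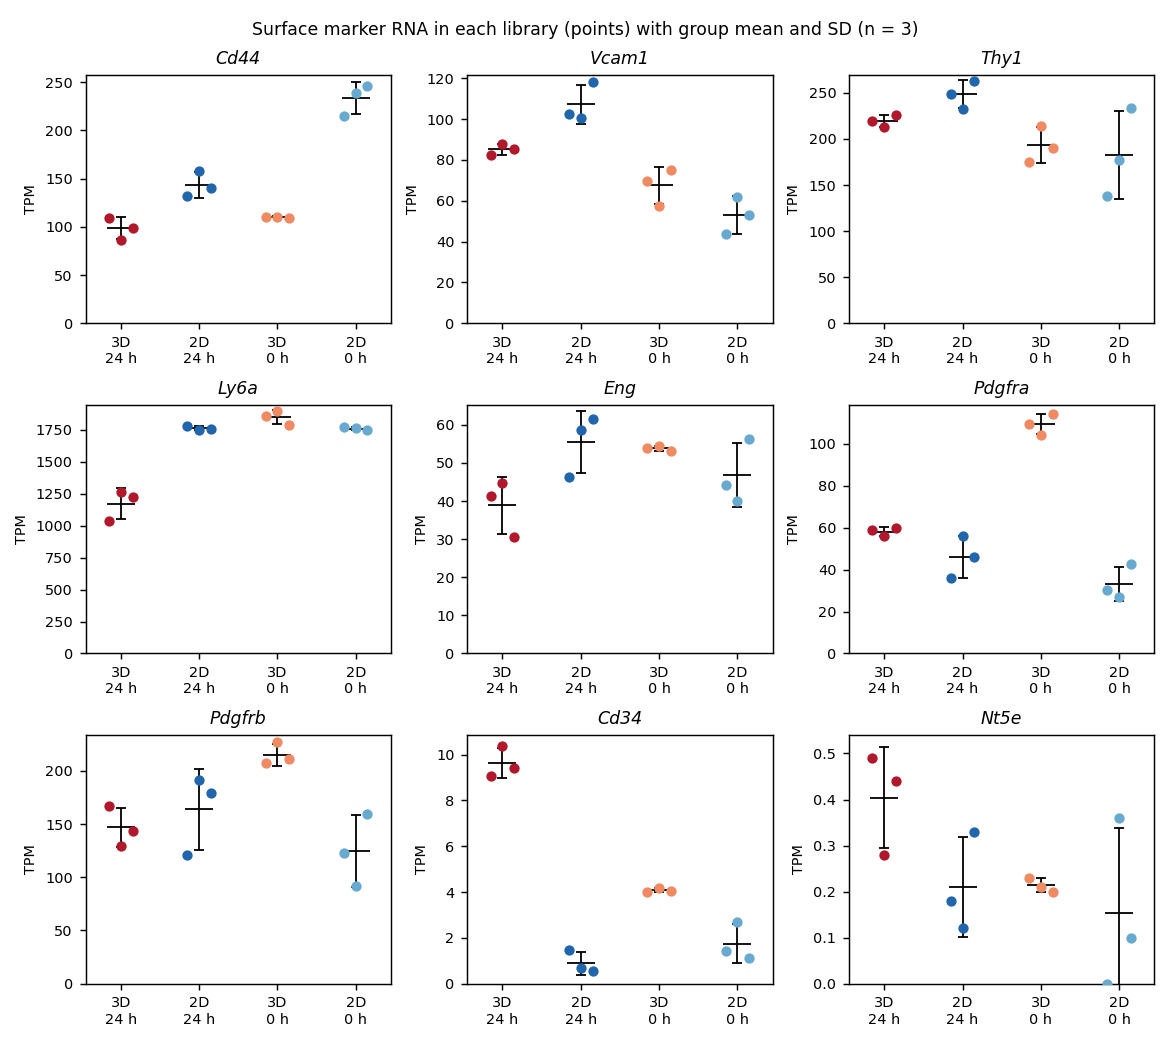
RNA level in TPM (vertical axes, from 0) of 9 markers in each of the 12 libraries, by group, with bars for the mean and SD (n = 3); an SD bar that would pass below 0 is clipped. Ly6a sits between 1035 and 1896 TPM in all libraries, and Cd34 is between 9.08 and 10.4 TPM in 3D spheroids at 24 h and at or below 1.45 TPM in 2D cells at 24 h.

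The order of the mean levels below Ly6a differed between the groups. Spheroids at 24 h had the order Thy1, Pdgfrb, Cd44, Vcam1, Pdgfra, Eng, with overlapping libraries between Cd44 and Vcam1. For 2D cells at 24 h the order was Thy1, Pdgfrb, Cd44, Vcam1, Eng, Pdgfra, with overlap between Pdgfrb and Cd44 and between Eng and Pdgfra. Spheroids at 0 h had Pdgfrb, Thy1, Cd44, Pdgfra, Vcam1, Eng, with overlap between Pdgfrb and Thy1 and between Cd44 and Pdgfra. For 2D cells at 0 h the order was Cd44, Thy1, Pdgfrb, Vcam1, Eng, Pdgfra, and of these neighbours all but Pdgfrb and Vcam1 overlapped. Cd34, Nt5e and Ptprc came last in every group. The sum over the 10 genes, most of it Ly6a, was 1723 to 1892 TPM in spheroids at 24 h, against 2471 to 2565 TPM in 2D cells at 24 h. It was 2546 to 2669 TPM in spheroids at 0 h, against 2367 to 2537 TPM in 2D cells at 0 h.

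The adhesion receptors are Cd44, which binds the matrix polysaccharide hyaluronan, and Vcam1, which binds integrins of leukocytes. Cd44 was lower in spheroids at both times. Its level was 109.7, 86.8 and 99.4 TPM in spheroids at 24 h, against 132, 158 and 139.9 TPM in 2D cells at 24 h. It was 111, 111 and 109.7 TPM in spheroids at 0 h, against 215, 239 and 246 TPM in 2D cells at 0 h. No spheroid library reached a 2D library of the same time, and the 2D libraries at 0 h stood above all others. From the counts, the log2 fold change of 3D against 2D was -0.56 ± 0.087 at 24 h (SE; edgeR adjusted p = 5.1e-05). At 0 h it was -1.25 ± 0.088, with the spheroid level 0.421 times the 2D level (SE; edgeR adjusted p = 5.3e-09). The deficit narrowed between the times, since the change at 24 h minus that at 0 h was 0.69 on the log2 scale (edgeR adjusted p = 0.000258). Over 24 h, Cd44 fell by 0.95 on the log2 scale in 2D cells (edgeR adjusted p = 7.2e-07). In spheroids its log2 fold change over 24 h was -0.26 (edgeR adjusted p = 0.0199). That call ended without 3D 0 h replicate 1 (adjusted p = 0.0924) or 2 (0.0978) or 3D 24 h replicate 2 (0.0874) or 3 (0.0590), without a filter (0.0924), with library totals (0.0999), and with limma on log2(TPM + 1), which gave -0.17 (0.197).

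Vcam1 was higher at 24 h in both cultures, and the direction of its difference between the cultures turned with time. Its level was 82.4, 87.9 and 85.2 TPM in spheroids at 24 h, against 103, 101 and 118 TPM in 2D cells at 24 h. The 0 h libraries held 69.9, 57.6 and 75.1 TPM in spheroids, against 43.7, 62.0 and 53.1 TPM in 2D cells. Spheroids were lower with no overlap at 24 h, and the TPM values of the cultures overlapped at 0 h. In 2D cells Vcam1 rose over 24 h by 1.03 ± 0.093 on the log2 scale, or 2.05-fold (SE; edgeR adjusted p = 5.9e-07). Spheroids showed a rise of 0.35 ± 0.092 (SE; edgeR adjusted p = 0.00482). The 3D against 2D value was -0.42 ± 0.092 at 24 h (SE; edgeR adjusted p = 0.0012) and 0.26 ± 0.093 at 0 h (SE; edgeR adjusted p = 0.0311). The test of the difference between these values gave -0.68 (edgeR adjusted p = 0.000493). At 0 h the call ended without 2D 0 h replicate 1 (adjusted p = 0.120), 3D 0 h replicate 1 (0.0865), 2 (0.0541) or 3 (0.0659) or 3D 24 h replicate 3 (0.0546), with the replicate block (0.0575), without a filter (0.0874) and in a fit of the 0 h libraries alone (0.0604). At 24 h it ended with limma on log2(TPM + 1), which gave -0.33 (adjusted p = 0.0642), and over 24 h in spheroids with limma on log2(TPM + 0.1), which gave 0.34 (0.0522).

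Ly6a and Thy1 encode small glycoproteins held in the membrane by a lipid anchor, and Ly6a, or Sca-1, is a marker of mouse stem and progenitor cells. Ly6a was lower in spheroids at 24 h than in any other group. Its level was 1035, 1263 and 1222 TPM in spheroids at 24 h, against 1783, 1750.1 and 1756 TPM in 2D cells at 24 h. The 0 h spheroids had 1861, 1896 and 1788 TPM, against 1772, 1763 and 1745 TPM in 2D cells at 0 h. The spheroid libraries at 24 h lay apart from the other 9, which stayed within 1745 to 1896 TPM. By CPM (counts scaled to library size) the other 9 spread more widely, from 606 to 823. The spheroids at 24 h ran from 325 to 493 CPM. By counts, the log2 fold change of 3D against 2D at 24 h was -0.67 ± 0.13 (SE; edgeR adjusted p = 0.000363). Over 24 h in spheroids it was -0.82 ± 0.13 (SE; edgeR adjusted p = 4.7e-05). The cultures at 0 h differed by -0.09, with a 95% interval of -0.35 to 0.18 (edgeR adjusted p = 0.598), and this sign turned with library totals (0.013), upper-quartile scaling (0.030) and limma on log2(TPM + 1) (0.070). In 2D cells the value over 24 h was -0.24 (edgeR adjusted p = 0.154), and it passed the threshold without 3D 24 h replicate 1 (-0.25, adjusted p = 0.0334). The test of the difference between the culture effects gave -0.58 (edgeR adjusted p = 0.0152). That call ended without 2D 24 h replicate 1 (adjusted p = 0.0566) or 3D 0 h replicate 1 (0.0523), and the value was -0.39 without 3D 24 h replicate 1.

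Thy1, or CD90, was lower in spheroids at 24 h by counts. Its level was 219, 213 and 226 TPM in spheroids at 24 h, against 249, 233 and 263 TPM in 2D cells at 24 h. For spheroids at 0 h the values were 175, 214 and 190.4 TPM, against 138, 177 and 234 TPM in 2D cells at 0 h. The cultures did not overlap at 24 h, and at 0 h the 2D libraries spread beyond the range of the spheroids on both sides, with replicate 3 highest. The log2 fold change of 3D against 2D at 24 h was -0.56 ± 0.18 (SE; edgeR adjusted p = 0.0204), and -0.18 with limma on log2(TPM + 1) (adjusted p = 0.369). The effective length that relates counts to TPM, relative to the other genes of a library, averaged 0.405 in spheroids at 24 h and 0.520 in 2D cells at 24 h. At 0 h it averaged 0.507 in spheroids and 0.422 in 2D cells. It was computed as counts over TPM, relative to the median gene of the library, so it restates the difference between the scales. Why it differed between the groups was not tested. The count-based call also ended with library totals (adjusted p = 0.0667), and without 2D 24 h replicate 1 (0.0669), 2 (0.0856) or 3 (0.0529), 3D 24 h replicate 1 (0.0954) or 3 (0.0519), or 3D 0 h replicate 1 (0.0543). The cultures at 0 h differed by 0.21 (edgeR adjusted p = 0.376), and by 0.61 without 2D 0 h replicate 3 (edgeR adjusted p = 0.00125).

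Over 24 h, Thy1 rose in 2D cells by 0.56 on the log2 scale (edgeR adjusted p = 0.0252). The rise was 0.94 without 2D 0 h replicate 3. Its call ended in a fit of the 2D libraries alone (adjusted p = 0.0517), and without 2D 0 h replicate 1 (0.155) or 2 (0.101) or 2D 24 h replicate 1 (0.0537), 2 (0.0773) or 3 (0.0672). In spheroids the value for Thy1 over 24 h was -0.20 (edgeR adjusted p = 0.378), and 0.19 with limma on log2(TPM + 1). The test of the difference between the culture effects gave -0.77 (edgeR adjusted p = 0.0262), and -0.28 with limma on log2(TPM + 1) (adjusted p = 0.311). That call also ended without 2D 0 h replicate 1 (0.109) or 2 (0.0631), 2D 24 h replicate 1 (0.0567), 2 (0.0698) or 3 (0.0515), 3D 0 h replicate 1 (0.0597) or 2 (0.112), or 3D 24 h replicate 1 (0.0782) or 3 (0.0554).

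Eng, or CD105, is a co-receptor for ligands of the TGF-beta family. Its level was 41.2, 44.7 and 30.6 TPM in spheroids at 24 h, against 46.2, 58.6 and 61.6 TPM in 2D cells at 24 h. Spheroids at 0 h had 54.0, 54.5 and 53.2 TPM, against 44.1, 40.0 and 56.2 TPM in 2D cells at 0 h. Each spheroid library lay below each 2D library at 24 h, while at 0 h the spheroids fell inside the range of the 2D cells. The log2 fold change of 3D against 2D at 24 h was -0.59 ± 0.12 (SE; edgeR adjusted p = 0.000952). The 0 h value was 0.06 with a 95% interval of -0.20 to 0.32 (edgeR adjusted p = 0.715), and -0.062 without 2D 0 h replicate 2. Eng fell over 24 h by 0.70 on the log2 scale in spheroids (edgeR adjusted p = 0.000194). In 2D cells its value was -0.05 with a 95% interval of -0.31 to 0.21 (edgeR adjusted p = 0.793). The difference between the culture effects was -0.65 (edgeR adjusted p = 0.00686).

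Pdgfra and Pdgfrb encode the receptor tyrosine kinases for platelet-derived growth factors, and both are used to mark stromal progenitors of fat. Pdgfra had its highest level in spheroids at 0 h. Its level was 58.7, 56.0 and 59.9 TPM in spheroids at 24 h, against 35.8, 55.9 and 46.2 TPM in 2D cells at 24 h. The 0 h spheroids had 109.7, 104 and 114 TPM, against 30.2, 27.1 and 42.6 TPM in 2D cells at 0 h. The spheroids at 0 h stood far above every other library, and at 24 h the lowest spheroid and the highest 2D library nearly met. The log2 fold change of 3D against 2D at 0 h was 1.85 ± 0.12, or 3.60-fold (SE; edgeR adjusted p = 1.4e-09). By 24 h it was 0.31 ± 0.11, or 1.24-fold (SE; edgeR adjusted p = 0.0328). The test of the difference between these values gave -1.53 (edgeR adjusted p = 9.6e-07). Over 24 h, Pdgfra fell by 0.94 on the log2 scale in spheroids (edgeR adjusted p = 3.0e-06) and rose by 0.59 in 2D cells (edgeR adjusted p = 0.000896). The call between cultures at 24 h ended without 2D 24 h replicate 1 (adjusted p = 0.0897) or 3 (0.0518), without 3D 24 h replicate 2 (0.0784) or 3 (0.104), and with limma on log2(TPM + 1) (0.105). The rise in 2D cells also missed the threshold with limma on log2(TPM + 1) (0.46, adjusted p = 0.0512). Expected counts of Pdgfra were not whole in the 6 spheroid libraries and in 1 of the 6 2D libraries, so some of its reads were shared with other gene IDs.

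Pdgfrb was higher in spheroids at 0 h. Its level was 167, 129.7 and 144 TPM in spheroids at 24 h, against 121, 191 and 179.5 TPM in 2D cells at 24 h. For spheroids at 0 h the values were 207, 227 and 211 TPM, against 123, 92.1 and 159 TPM in 2D cells at 0 h. The cultures overlapped at 24 h and did not at 0 h. The log2 fold change of 3D against 2D at 0 h was 0.65 ± 0.15, or 1.57-fold (SE; edgeR adjusted p = 0.00188). By 24 h it was -0.16 with a 95% interval of -0.47 to 0.16 (edgeR adjusted p = 0.438). The test of the difference between these values gave -0.81 (edgeR adjusted p = 0.00593). Pdgfrb fell over 24 h by 0.64 on the log2 scale in spheroids (edgeR adjusted p = 0.00215), and its value in 2D cells was 0.17 (edgeR adjusted p = 0.399).

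Levels were also compared within each library, which does not depend on scaling between libraries. The ratio of Pdgfra to Pdgfrb in TPM was 0.352, 0.431 and 0.416 in spheroids at 24 h, against 0.297, 0.292 and 0.257 in 2D cells at 24 h. Spheroids at 0 h had ratios of 0.529, 0.460 and 0.540, against 0.246, 0.294 and 0.267 in 2D cells at 0 h. Every spheroid library had a higher ratio than every 2D library. The ratio was 1.41-fold higher in spheroids at 24 h and 1.89-fold higher at 0 h. An exact two-sided permutation test gave p = 0.1 at either time, the smallest that 3 libraries against 3 can give. Over 24 h in spheroids the ratio was 0.783 times the 0 h one, with no overlap (exact permutation p = 0.1), and in 2D cells the times overlapped (1.05-fold, exact permutation p = 0.6). Taken from expected counts, which keep the effective lengths in, the ratio was also higher in spheroids, by 1.38-fold at 24 h and 2.26-fold at 0 h. By counts it was 1.33-fold higher at 24 h than at 0 h in 2D cells, with no overlap (exact permutation p = 0.1). The relative effective length of Pdgfra, which restates its counts over TPM, averaged 2.39 in 2D cells at 24 h and 1.97 in 2D cells at 0 h. Why this length differed was not tested. The ratio of Cd44 to Thy1 was 0.500, 0.407 and 0.439 in spheroids at 24 h, against 0.530, 0.679 and 0.532 in 2D cells at 24 h. At the earlier time the ratios were 0.632, 0.517 and 0.576 in spheroids at 0 h, against 1.56, 1.35 and 1.05 in 2D cells at 0 h. In 2D cells at 0 h the Cd44 level exceeded the Thy1 level in each library, and in the other 9 libraries it did not. By TPM, the ratio in spheroids was 0.776 times that of 2D cells at 24 h and 0.439 times at 0 h, with no overlap (exact permutation p = 0.1 each, again the smallest possible). Over 24 h it was 0.780 times the 0 h ratio in spheroids and 0.442 times in 2D cells, also with no overlap (exact permutation p = 0.1 each). By expected counts the cultures did not separate at 24 h, where the ratio was 2.12, 1.63 and 1.70 in spheroids, against 1.84, 1.84 and 1.74 in 2D cells (1.00-fold, exact permutation p = 1.0). The separation at 24 h was therefore seen by TPM only, where the effective lengths are divided out. Those of Thy1 are given above. By counts the spheroids of the different times overlapped as well (exact permutation p = 0.9), while at 0 h the cultures stayed apart (0.350 times, exact permutation p = 0.1), as did the times in 2D cells (0.335 times, exact permutation p = 0.1).

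**Figure D2:**
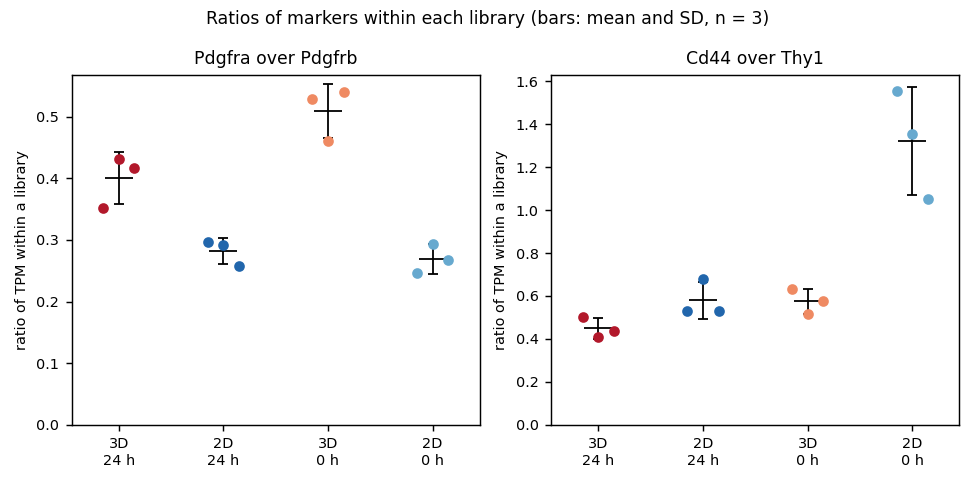
Ratio of TPM values within each library (vertical axes, from 0) for Pdgfra over Pdgfrb and for Cd44 over Thy1, by group, with bars for the mean and SD (n = 3). The Pdgfra to Pdgfrb ratio is between 0.352 and 0.540 in the 6 spheroid libraries and between 0.246 and 0.297 in the 6 2D libraries, and the Cd44 to Thy1 ratio is above 1 in 2D cells at 0 h only.

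Cd34 is a sialomucin of blood progenitors, endothelium and tissue stromal cells. Among the 8 tested genes it had the widest range of group means in log2 CPM (3.33), and the lowest levels in TPM. Its level was 9.08, 10.4 and 9.42 TPM in spheroids at 24 h, against 1.45, 0.67 and 0.54 TPM in 2D cells at 24 h. Spheroids at 0 h had 4.01, 4.19 and 4.06 TPM, against 1.43, 2.70 and 1.13 TPM in 2D cells at 0 h. Each spheroid library was higher than each 2D library, and spheroids at 24 h were higher than spheroids at 0 h. These levels rest on 206, 189 and 180 expected counts in spheroids at 24 h, against 25, 10 and 11 in 2D cells at 24 h. The 0 h levels rest on 64, 86 and 72 expected counts in spheroids, against 29, 63 and 26 in 2D cells. The log2 fold change of 3D against 2D at 24 h was 3.36 ± 0.38, or 10.3-fold (SE; edgeR adjusted p = 1.7e-06), with a 95% interval of 2.55 to 4.17. Of all tested genes, 2.11% had a larger change in either direction in that comparison. Its leave-one-out values ran from 3.06 to 4.04, the highest without 2D 24 h replicate 1, and limma on log2(TPM + 1), which understates changes of low genes, gave 2.52. The 0 h change was 1.07 ± 0.35, or 2.10-fold (SE; edgeR adjusted p = 0.0193), a call that ended without 2D 0 h replicate 1 (adjusted p = 0.0578) or 3 (0.0698). The change at 24 h exceeded that at 0 h by 2.29 on the log2 scale (edgeR adjusted p = 0.0020).

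Over 24 h, Cd34 rose in spheroids by 1.10 ± 0.33 on the log2 scale, or 2.14-fold (SE; edgeR adjusted p = 0.0105). In 2D cells its value was -1.20 ± 0.40 (SE; edgeR adjusted p = 0.0302), although replicate 1 at 24 h lay within the range of the 0 h libraries. That call ended without 2D 0 h replicate 2 (-0.72, adjusted p = 0.176), 2D 24 h replicate 2 (0.116) or 2D 24 h replicate 3 (0.145), in a fit of the 2D libraries alone (0.115) and with limma on log2(TPM + 1) (-0.53, adjusted p = 0.111). Without 2D 24 h replicate 1 the value was -1.82. Among 13107 candidate genes, ENSMUSG00000041481 followed the log2 CPM (counts scaled to library size) of Cd34 most closely, with a mean absolute difference of 0.32 over the 12 libraries after centring. The next, ENSMUSG00000031266, differed by 0.36. ENSMUSG00000041481 had 14.8 ± 4.03 CPM in spheroids at 24 h, 1.97 ± 0.920 CPM in 2D cells at 24 h, 8.33 ± 1.66 CPM in spheroids at 0 h and 2.79 ± 1.11 CPM in 2D cells at 0 h (SD, n = 3). The tables used here pair these IDs with no name.

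Ptprc, or CD45, the tyrosine phosphatase carried by nearly all white blood cells, had 0 counts in all 12 libraries. Over their 155737529 expected counts, a floor of 3 counts corresponds to 0.0193 CPM, and the exact 95% upper limit of a count of 0 is 0.0237 CPM. Nt5e, or CD73, is the surface enzyme that makes adenosine from AMP. It had 20, 8 and 14 expected counts in spheroids at 24 h, against 5, 3 and 11 in 2D cells at 24 h. Spheroids at 0 h had 6, 7 and 6, against 0, 10 and 4 in 2D cells at 0 h. The libraries of the cultures overlapped at both times. Nt5e counts were also summed within each group and divided by total expected counts, without the scaling factors used for the CPM of Ly6a. This gave 1.02 CPM in spheroids at 24 h (exact 95% counting interval 0.736 to 1.38), against 0.513 CPM in 2D cells at 24 h (0.309 to 0.801). The 0 h spheroids had 0.538 CPM (0.324 to 0.840), against 0.332 CPM in 2D cells at 0 h (0.181 to 0.556). These intervals cover counting error only. Nt5e did not pass the filter on low counts, and without the filter its log2 fold change of 3D against 2D was 0.90 ± 0.84 at 24 h (SE; edgeR adjusted p = 0.525) and 0.67 ± 0.90 at 0 h (SE; edgeR adjusted p = 0.657). No difference between the cultures was called for Nt5e in that fit, and the part of sequencing depth in this was not tested. The RNA of this gene of the human panel was close to 0 in cells labelled as mesenchymal stem cells, while Thy1, Eng, Ly6a and Cd44 were each at 30.6 TPM or more in every library.

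Of the 10 genes, 8 passed the filter on low counts and were tested, and Nt5e and Ptprc were not. At 24 h, 7 of the 8 were called between the cultures by edgeR (adjusted p under 0.05), where 42.5% of all 14338 tested genes were called. Cd34 and Pdgfra were higher in spheroids, with 19.6% of all genes called higher, and Cd44, Vcam1, Thy1, Ly6a and Eng were lower, with 22.8% of all genes called lower. At 0 h, 5 of the 8 were called, where 45.8% of all genes were. Cd34, Pdgfra, Pdgfrb and Vcam1 were higher in spheroids, with 23.1% of all genes called higher, and Cd44 was lower, with 22.7% called lower. The split over all genes moved with the scaling: at 24 h it was 3648 higher and 2708 lower with library totals, in place of 2815 and 3276, and at 0 h it was 4025 and 2610 with upper-quartile scaling and 3641 and 2229 with limma on log2(TPM + 1), in place of 3309 and 3255. The 8 genes had a median log2 fold change of -0.49 at 24 h, where that of all genes was -0.0018, and of 0.23 at 0 h, where that of all genes was 0.02. A change of at least 2-fold was called for 1 of the 8 at 24 h and for 3 at 0 h, where 18.0% and 19.1% of all genes had one. The CPM of the cultures did not overlap for 7 of the 8 at 24 h and for 5 at 0 h, as for 52.9% and 54.4% of all genes.

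**Figure D3:**
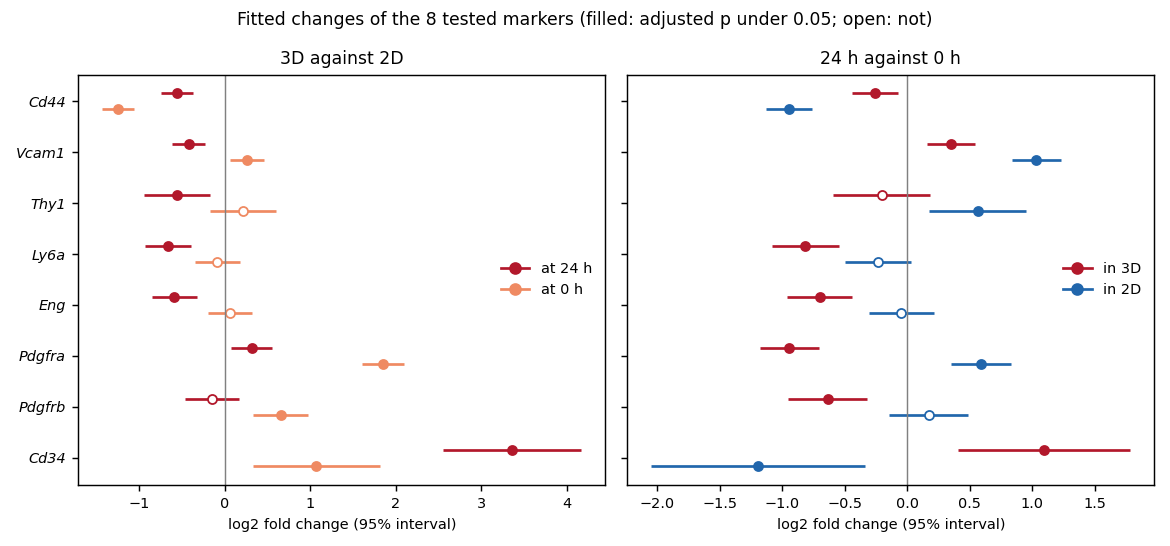
Log2 fold changes with 95% intervals (horizontal axes) of the 8 tested markers from the edgeR fit, for 3D against 2D at either time (left) and for 24 h against 0 h in either culture (right); filled points have an adjusted p under 0.05. Cd34 reaches 3.36 for 3D against 2D at 24 h, and Pdgfra is at 0.31 at 24 h and 1.85 at 0 h.

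Over 24 h in spheroids, 7 of the 8 genes were called, where 48.5% of all genes were. Cd34 and Vcam1 rose, with 23.8% of all genes called higher, and Cd44, Ly6a, Eng, Pdgfra and Pdgfrb fell, with 24.7% called lower. In 2D cells, 5 of the 8 were called, where 34.4% of all genes were. Thy1, Pdgfra and Vcam1 rose, with 17.4% of all genes called higher, and Cd44 and Cd34 fell, with 17.0% called lower. Over all genes this was 2489 higher and 2441 lower, and limma on log2(TPM + 1) called 2891 higher and 1257 lower. The median log2 fold change over 24 h was -0.45 in spheroids and 0.06 in 2D cells, and that of all genes was -0.0043 and 0.02. A change of at least 2-fold was called for 1 gene in spheroids and 2 in 2D cells, where 20.6% and 8.85% of all genes had one. The CPM of the times did not overlap for 7 of the 8 in spheroids and 4 in 2D cells, as for 60.3% and 43.1% of all genes. By these calls Pdgfra fell in spheroids and rose in 2D cells, Cd34 did the opposite, and Vcam1 was higher and Cd44 lower in both. Some of the calls ended in alternatives given above, among them those of Cd34 in 2D cells and of Cd44 in spheroids. The CPM of Cd34 overlapped between the times in 2D cells. These comparisons share libraries and are not independent of each other.

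The difference between cultures changed with time for each of the 8 tested genes (edgeR test of that difference, adjusted p between 9.6e-07 and 0.0262), where 39.1% of all genes were called. It was more positive at 24 h for Cd34 and Cd44, with 18.7% of all genes called that way, and more negative for the other 6, with 20.5%. Differences of at least 2-fold were called for Cd34 and Pdgfra, where 22.6% of all genes had one. The median was -0.67 for the 8 genes and -0.02 for all genes. For Cd44 the more positive value was a smaller deficit in spheroids, and for Cd34 it was a larger excess.

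**Figure D4:**
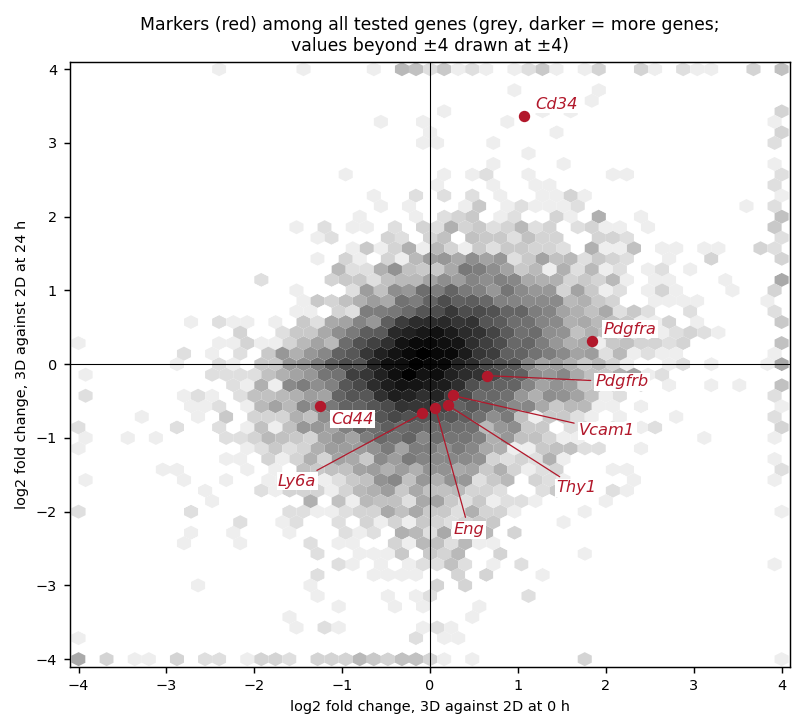
Log2 fold change of 3D against 2D at 24 h (vertical axis) and at 0 h (horizontal axis) for all 14338 tested genes (grey bins) and the 8 tested markers (red points). Cd34 lies at 3.36 and 1.07, Cd44 at -0.56 and -1.25, and Vcam1 at -0.42 and 0.26, below the horizontal line and right of the vertical one.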

How the data were processed

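The 12 libraries were grouped by culture and time from their labels. Per the submitters' processing notes, the authors used FastQC 0.11.9, STAR, RSEM and the build GRCm39; no annotation or setting of these tools is named there. The deposited tables hold expected counts for each gene ID, estimated by the authors' pipeline and fractional where reads were shared between genes, and, per the file headers, log2(TPM + 1) values. Column names give day 0 and day 1, read as 0 h and 24 h. Strand settings of the counting are not stated, so it is not known if reads of overlapping antisense genes were told apart.

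Rounded expected counts were fitted with edgeR 4.0.16 under R 4.3.3 (expression filter with a minimum count of 10, TMM scaling, quasi-likelihood test, 1 term per group over 12 libraries, Benjamini-Hochberg adjustment over 14338 genes). A gene was called at an adjusted p under 0.05. SEs are the log2 fold change over the root of the F statistic. Levels are the deposited values turned back to TPM. Alternatives used limma 3.58.1, DESeq2 1.42.0, other scalings, filters and left-out libraries. The edgeR, DESeq2 and limma fits were run on simulated counts with set changes and the spread estimated from these data. Changes were set in spheroids at 24 h only, so the comparisons without that group held none. There limma was given log2(CPM + 1) in place of values from TPM. The other steps were not tested in this way. The lowest chi-square per degree of freedom between replicates was 4.70, so none was counted as a repeat. It ran from 4.70 to 7.96 in spheroids at 0 h and from 19.9 to 38.2 in 2D cells at 0 h. In the groups at 24 h it lay between 6.31 and 29.5. The pairs with replicate 1 gave 29.5 and 23.1 in spheroids at 24 h, against 6.53 for replicates 2 and 3. In 2D cells at 24 h the pairs with replicate 1 gave 23.2 and 15.9, against 6.31 for replicates 2 and 3. The fit took the spread of a gene as common to all groups. The members, gene lists and promoter motifs were chosen with earlier results of these data known. The members' names come with their choice by ID. The planned lists of other marker genes are given by symbol, which the tables used here do not pair with the IDs, so they were not analysed here, and the rule for named genes was applied to the 10 members and to the 2 IDs most like Cd34.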

Additional observations from a re-analysis of the deposited data

Results flagged for a closer look

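For 8 markers, the culture effect at 24 h was not the one at 0 h by the edgeR test of that difference. The log2 change at 24 h minus that at 0 h was 2.29 for Cd34, 0.69 for Cd44, -1.53 for Pdgfra, -0.81 for Pdgfrb, -0.77 for Thy1, -0.68 for Vcam1, -0.65 for Eng and -0.58 for Ly6a. The calls for Thy1 and Ly6a ended in leave-one-out fits, and the largest adjusted p there was 0.112 for Thy1 (without 3D 0 h replicate 2) and 0.0566 for Ly6a (without 2D 24 h replicate 1).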

How the results depend on the processing

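Of 872 member values under 22 alternatives, 792 kept their direction and their side of the threshold, 63 lost the call, 2 gained it and 15 changed sign. None of the 15 had been called. Group levels relative to the mean of the gene were also taken from TPM in place of CPM. Of these 32 levels, 14 moved by the SD of the group or more. The signs that turned were those of Ly6a at 0 h (0.013 with library totals, 0.030 with upper-quartile scaling, 0.070 with limma on log2(TPM + 1) and 0.070 on log2(TPM + 0.1)), of Ly6a over 24 h in 2D (0.0025 with limma at either pseudocount), of Thy1 over 24 h in 3D (0.19 with limma at either pseudocount) and of Eng over 24 h in 2D (0.010 with library totals, 0.00052 with upper-quartile scaling, 0.24 and 0.25 with limma). Without 1 library, the log2 fold change of Eng ranged from -0.062 to 0.20 for 3D against 2D at 0 h and from -0.17 to 0.076 over 24 h in 2D, and that of Pdgfrb from -0.0011 to 0.36 over 24 h in 2D. At 24 h, 4 markers were called for 3D against 2D with limma at either pseudocount, in place of 7. Over 24 h in 2D, 3 were called with limma at either pseudocount and 3 with only the 2 groups compared, in place of 5, and 3 to 6 without 1 library. At 0 h, 3 to 5 were called without 1 library. The cause was not tested. In an alternative chosen after seeing the data, the log2 ratio of Cd44 to Thy1 for 3D against 2D at 24 h was 0.0016 by expected counts, in place of -0.37 by TPM. The median 3D against 2D change of all genes was 0.12 at both times with library totals, and at 0 h it was 0.14 with upper-quartile scaling and 0.13 with limma on log2(TPM + 1), which also gave 0.17 over 24 h in 2D.

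The replicate numbers share no label of a batch, and deviations of same-numbered libraries correlated between -0.23 and 0.052 over 18 pairs. With the replicate block, 4 markers were called for 3D against 2D at 0 h (Vcam1 lost its call), 7 at 24 h, 5 over 24 h in 2D, 7 over 24 h in 3D and 8 for the difference. Nt5e was tested only without the filter on low counts, and Ptprc, at 0 counts, in no fit.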
